A study of Drosophila melanogaster with 2 samples.

Results

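Of the 9 genes described here, 7 are Hox genes and 2 encode the cofactors with which Hox proteins bind DNA. They are lab, pb, Dfd, Scr and Antp of the Antennapedia complex, Ubx and abd-A of the bithorax complex, and the cofactor genes hth and exd. They were taken by name out of 13945 protein-coding genes of Drosophila melanogaster, by no threshold on a measured value, though with earlier results of these data known. The measurement was ChIP-seq for Trachealess (Trh) in whole embryos of 0 to 24 h and of both sexes. The embryos came from a trh-GFP line that stably carries trh fused at its C-terminal end to GFP, and chromatin was precipitated with an antibody against GFP. The study had a single group of 2 biological replicates, which the labels number 1 and 3. It compared no genotypes, treatments or ages, so there is no test between conditions. No untagged embryos were analysed here. All cells of the embryo are pooled, so a site bound strongly in a few cells and one bound weakly in many cannot be told apart.

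Hox genes encode homeodomain transcription factors that give the segments of the fly their identity along the body axis. They lie in the Antennapedia and bithorax complexes on chromosome arm 3R, in an order that follows the order of the body regions they pattern. Extradenticle (exd) and Homothorax (hth) are homeodomain proteins of the TALE class. They bind DNA together with Hox proteins, and Hth brings Exd into the nucleus. Trh is a bHLH-PAS factor that, with its partner Tango, specifies the tracheae, and Hox genes are known to make tracheal branches differ between segments.

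The lists used hold called peaks with a signal value from the authors' peak caller, a score that serves to rank peaks within 1 list. A total of 2322 peaks passed the authors' irreproducible discovery rate (IDR) threshold, with signals from 74.4 to 1016 and a median of 110.1. The relaxed lists of peaks and background held 21025 peaks for the pooled replicates, 28743 for replicate 1 and 30000 for replicate 3. Read depth is unknown, and intervals given below are exact 95% intervals for counting error only.

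Only Antp and hth held peaks past the IDR threshold. By summits within the gene span or 2000 bp of it, Antp had 2 and hth had 3, and lab, pb, Dfd, Scr, Ubx, abd-A and exd had 0. That is 2 of 9 members, against 22.4% of all protein-coding genes by the same rule. Of the 6 members longer than 20 kb (pb, Scr, Antp, Ubx, abd-A and hth), 2 held such a peak, against 41.6% of the 1013 protein-coding genes of that length. When each summit was given to the nearest protein-coding transcription start site (TSS), the members with a peak were again 2 of 9. The background was 13% of all protein-coding genes and 30.9% of those longer than 20 kb. The count by span is near the background for all genes. With 2 members holding peaks, none of these counts is read as a difference from the background. By the nearest TSS hth gained 3 peaks upstream of the gene, for a total of 6, and Antp kept 2. The resulting 8 peaks are described first.

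The sequences under these 8 summits are shown because they are the DNA that all member peaks past the threshold rest on. Each line gives 101 bases of the plus strand of dm6, from the RefSeq release 6 genome, centred on the summit. Capitals mark any match, on either strand, to 1 of 6 short sequences: ACGTG (the core bound by Trh with Tango), TGACAG (bound by Hth), TGATNNAT (bound by Exd with a Hox protein), TAATTA (bound by many homeodomains), GAGAG (bound by the GAGA factor) or GCCAT (the core bound by the Polycomb recruiter Pho).
Antp, farther intronic summit (chr3R:6912571-6912671): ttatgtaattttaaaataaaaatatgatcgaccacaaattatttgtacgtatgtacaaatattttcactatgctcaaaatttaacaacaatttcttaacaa
Antp, nearer intronic summit (chr3R:6920137-6920237): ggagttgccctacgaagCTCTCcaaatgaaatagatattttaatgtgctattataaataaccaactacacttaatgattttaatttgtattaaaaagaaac
hth, strongest summit, intron 3 (chr3R:10597760-10597860): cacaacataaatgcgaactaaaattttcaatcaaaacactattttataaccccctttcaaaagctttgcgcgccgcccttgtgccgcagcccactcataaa
hth, intron 7 (chr3R:10560732-10560832): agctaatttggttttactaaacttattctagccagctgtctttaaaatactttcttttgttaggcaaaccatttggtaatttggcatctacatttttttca
hth, upstream at 1866 bp (chr3R:10641384-10641484): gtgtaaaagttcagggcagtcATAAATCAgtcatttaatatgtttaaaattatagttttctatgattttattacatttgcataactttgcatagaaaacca
hth, upstream at 3790 bp (chr3R:10643308-10643408): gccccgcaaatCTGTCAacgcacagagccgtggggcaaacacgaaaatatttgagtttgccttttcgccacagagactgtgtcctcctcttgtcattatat
hth, upstream at 9460 bp (chr3R:10648978-10649078): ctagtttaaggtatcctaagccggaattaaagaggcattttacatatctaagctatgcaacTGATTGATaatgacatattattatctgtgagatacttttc
hth, upstream at 9659 bp (chr3R:10649177-10649277): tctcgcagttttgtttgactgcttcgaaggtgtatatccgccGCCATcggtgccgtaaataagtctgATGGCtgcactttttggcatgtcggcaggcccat

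Antp (FBgn0260642, dm6, 3R, 6896253 to 6999228, minus strand) specifies the second thoracic segment and is the longest of the Hox members. Its stronger peak (6912421 to 6912820) had its summit at 6912621, with a pooled signal of 106.8 and rank 1230 of 2322. Replicate 1 had its summit at the same base, with signal 73.9 and rank 949. In replicate 3 the summit was 6 bp away, with signal 32.0 and rank 2029. The other peak (6919987 to 6920386, summit 6920187) had a pooled signal of 99.9 and rank 1398. It had signal 61.4 and rank 1396 in replicate 1, and signal 34.3 and rank 1798 in replicate 3. Both peaks were thus among the 2322 strongest of each replicate, and both lay just below the median signal of the peaks past IDR.

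Neither Antp peak was at a promoter. The summits were 20219 and 12653 bp from the nearest TSS, an internal start of Antp at 6932840, in the second of 6 introns of the longest transcript. This intron is 60.1 kb long and also lies in the overlapping coding gene CG46458 (6896253 to 6958370, same strand), so the peaks cannot be given to Antp alone. Between them another summit, at 6914516, had a pooled signal of 74.3, just short of the lowest signal past IDR, 74.4, and rank 2328 in the pooled list. In replicate 3 it was the strongest summit of Antp (signal 40.2, rank 1360), while in replicate 1 it had signal 36.5 and rank 3687. The summit at 6936298 showed the opposite order, with signal 57.6 and rank 1580 in replicate 1 and signal 23.8 and rank 4016 in replicate 3. In all, the gene window held 18 pooled peaks. The second intron had 11 of these and the first, of 27.5 kb, had 2. The last, of 9.97 kb, had 5, none past the threshold.

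hth (FBgn0001235, 3R, 10507561 to 10639568, minus strand) held the strongest peak of any member. This peak (10597610 to 10598009, summit 10597810) lay in the third of 13 introns, 16466 bp from an internal TSS of hth. Its pooled signal was 152.9, rank 567. The replicates ranked it alike, at 602 in replicate 1 (signal 91.6) and 598 in replicate 3 (signal 59.9). A weaker intronic peak, with its summit at 10560782 in intron 7 and 53494 bp from the nearest TSS, had a pooled signal of 85.3 and rank 1818. It had a higher signal in replicate 3 (49.7, rank 876) than in replicate 1 (37.0, rank 3588).

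The other 4 hth peaks stood upstream of the gene, within 10 kb of its distal start at 10639568. The nearest, with its summit 1866 bp upstream, had a pooled signal of 76.2 and rank 2227. It had signal 55.8 and rank 1683 in replicate 1, and signal 22.2 and rank 4866 in replicate 3. The next, 3790 bp upstream, had a pooled signal of 88.5, with signal 42.3 and rank 2781 in replicate 1 and signal 43.5 and rank 1157 in replicate 3. Both of these summits lay in an exon of the antisense RNA gene asRNA:CR44018 (10639279 to 10645773, plus strand).

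Farther out, 9460 and 9659 bp upstream, were 2 overlapping intergenic peaks with pooled signals of 94.9 and 76.9. Each replicate had 1 summit there. That of replicate 1, at 10649181, lay between the pooled summits, 46 bp from the outer one (signal 62.4, rank 1355). That of replicate 3, at 10649043, was 15 bp from the inner one (signal 38.5, rank 1461). This upstream stretch of 10 kb held 4 peaks past IDR and 6 pooled peaks, and going out to 20 kb added 0 and 1.

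**Figure D1:**
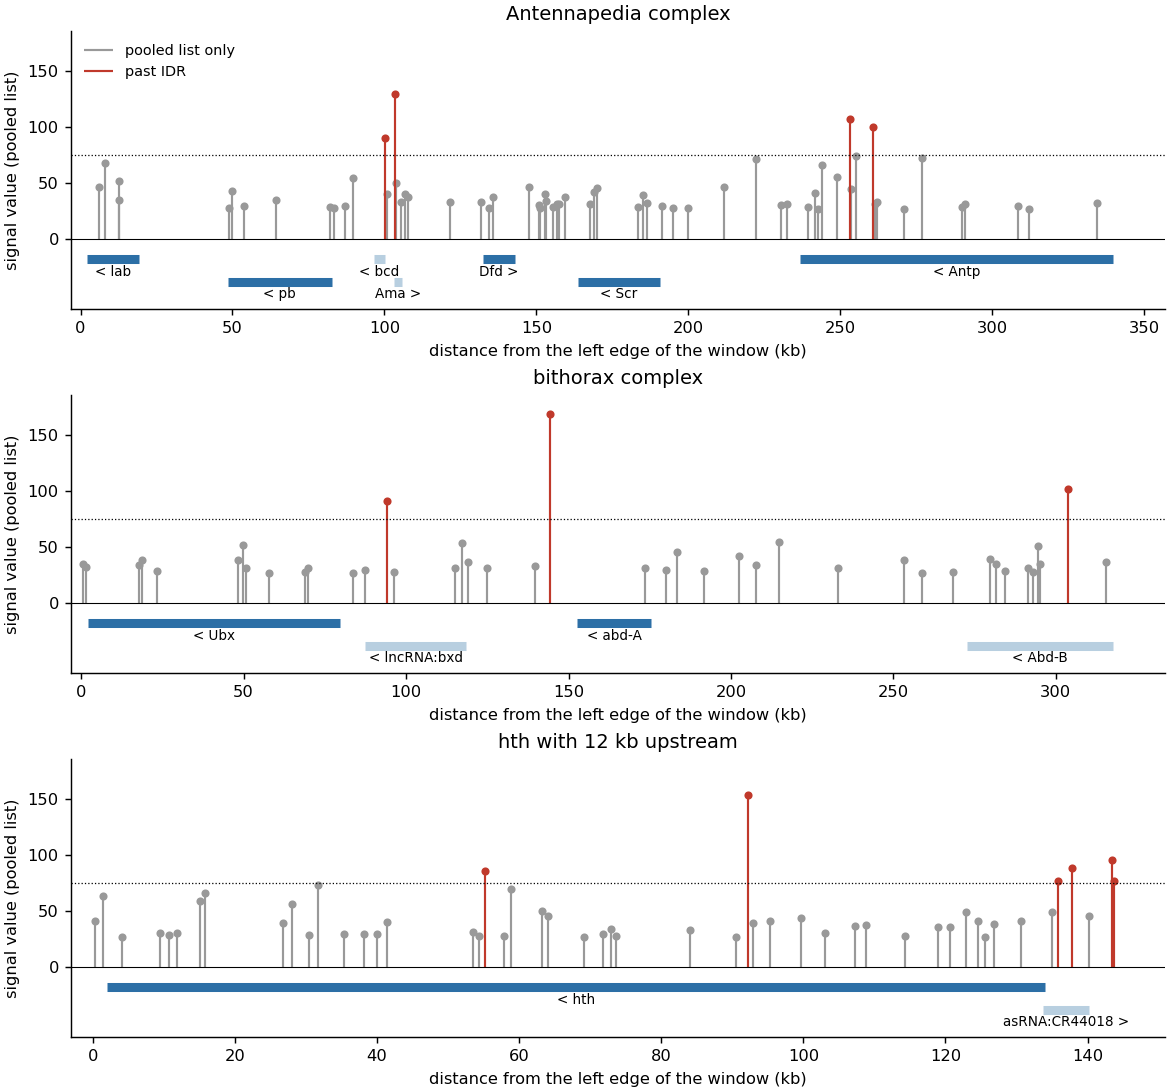
Pooled peaks along both Hox complexes and hth with 12 kb upstream, with the distance from the left edge of the window (kb) on the x axis and the pooled signal value on the y axis. Red stems passed IDR, grey ones did not, the dotted line is the lowest signal past IDR, 74.4, and bars are gene spans (dark for members, < minus strand, > plus strand). The red stems at members stand in the left part of Antp and within and upstream of hth.

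The replicates ranked these 8 peaks in different orders. A summit within 100 bp was found in both replicates for 6 of the 8, against 94.2% of all 2322 peaks past IDR, and the 2 exceptions are the overlapping pair upstream of hth. The log2 ratio of replicate 1 to replicate 3 signal had a median of 0.64 over all peaks past IDR with both (quartiles 0.36 and 0.95). It was 1.21 and 0.84 at the stronger and the weaker Antp peak. At hth it was 0.61 at the strongest peak, -0.43 in intron 7, 1.33 at 1866 bp upstream and -0.04 at 3790 bp upstream. Of the hth peaks matched in both replicates, the strongest alone was among the 2322 highest of each. Because the replicate lists shared 1 control alignment, their agreement is not fully independent.

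**Figure D2:**
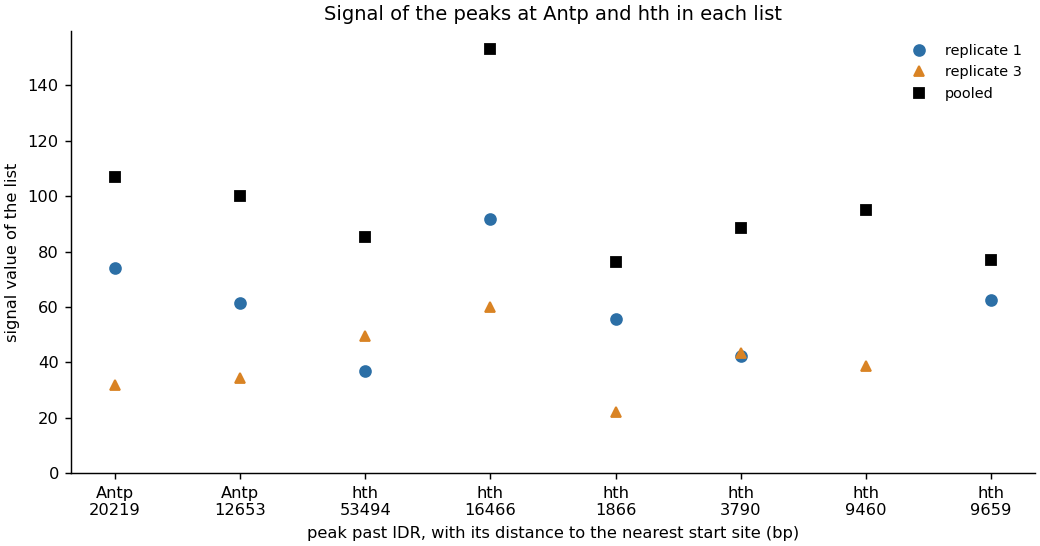
Signal value (y axis) of the 8 peaks past IDR at Antp and hth (x axis, with the distance to the nearest TSS in bp) in the pooled list (squares), replicate 1 (circles) and replicate 3 (triangles). Missing circles or triangles have no summit within 100 bp, and the hth peak at 16466 bp is the highest in each list.

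The remaining members had peaks in the relaxed list only. Every one of the 9 members held at least 1 pooled peak, against 73.3% of all protein-coding genes. At the 7 other members even the strongest of these fell short of IDR. The peaks past IDR are the 2322 strongest of the pooled list, so the lower confidence of these strongest peaks follows from the threshold itself. Most pooled peaks at Antp and hth fell short as well, since 2 of 18 and 3 of 46 by span passed. The lowest −log10 q value past IDR was 2.80. For the strongest peak of each of the 7 other members it ran from 0.0905 at abd-A to 2.33 at lab.

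In the Antennapedia complex, lab (FBgn0002522, 3R, 6661427 to 6678590), which acts in the head and the midgut, came closest. Its strongest pooled peak, at 6667421 in the first intron, had signal 68.1 and rank 2694. Replicate 1 placed it among its strongest 2322 (signal 49.6, rank 2093), and replicate 3 had no summit within 100 bp. Another summit, at 6671978, had the reverse pattern, with rank 10632 in replicate 1 and 2552 in replicate 3. All 4 pooled peaks of lab were in that intron, of 14.1 kb.

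Proboscipedia (pb, FBgn0051481, 6707800 to 6742063) acts in the mouthparts. Its 6 pooled peaks had a highest signal of 42.4 (rank 6586), and 3 of the 6 were nearer to the TSS of another gene. Deformed (Dfd, FBgn0000439, 6791836 to 6802428, plus strand) patterns the gnathal head. It had 3 pooled peaks, the highest at signal 37.0 (rank 9052). Replicate 1 had 0 summits in the Dfd window and replicate 3 had 4, the strongest of rank 3406. Sex combs reduced (Scr, FBgn0003339, 6823120 to 6849981) acts in the labium and the first thoracic segment and is needed for the salivary glands. It had 7 pooled peaks, the highest at signal 45.5 (rank 5657) in intron 2, which was matched in replicate 1 (signal 30.5, rank 5162) and not in replicate 3.

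In the bithorax complex, Ubx (FBgn0003944, 16656623 to 16734426), which specifies the third thoracic segment, had 11 pooled peaks, of which 5 were nearer to another gene's TSS. The strongest was at 16704555 in the last of 3 introns, with signal 51.3, rank 4442 and a −log10 q value of 1.03. It was found in both replicates, with signal 29.1 and rank 5694 in replicate 1 and signal 21.7 and rank 5241 in replicate 3. abd-A (FBgn0000014, 16807214 to 16830049), which specifies abdominal segments, had 1 pooled peak, the lowest-ranked best peak of the 9 members. Its summit at 16828029 was 76 bp from a TSS of abd-A, with signal 30.8 and rank 14541. It had signal 15.5 and rank 23174 in replicate 1 and no match in replicate 3. In the abd-A window replicate 1 had 8 summits, the strongest of rank 10599, and replicate 3 had 3, the strongest of rank 18199.

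exd (FBgn0000611, X, 15992468 to 15996509, plus strand) spans 4042 bp and is the shortest member. Its only pooled peak had its summit at 15992280, 188 bp upstream of the gene's start, with signal 38.2, rank 8381 and a −log10 q value of 0.320. In replicate 1 the summit was the same, with signal 31.6 and rank 4804. Replicate 3 had none within 100 bp, and the summit it did have in the window ranked 27433. The windows under the strongest peaks of lab, Ubx and exd are shown, in the layout used above, because, among members with no peak past IDR, they hold the highest signal of the Antennapedia complex, the bithorax complex and the cofactors. Of the 6 sequences searched, none was in these 3 windows. Among the strongest windows of the members not shown, those of pb and Dfd held GCCAT, that of abd-A held GAGAG and that of Scr held none.
lab, intron 1 (chr3R:6667371-6667471): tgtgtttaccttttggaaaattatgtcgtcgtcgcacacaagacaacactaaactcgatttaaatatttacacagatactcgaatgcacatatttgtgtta
Ubx, intron 3 (chr3R:16704505-16704605): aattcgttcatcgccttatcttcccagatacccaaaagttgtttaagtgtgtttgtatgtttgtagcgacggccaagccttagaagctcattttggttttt
exd, promoter (chrX:15992230-15992330): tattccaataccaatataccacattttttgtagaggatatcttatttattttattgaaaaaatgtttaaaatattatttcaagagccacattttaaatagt

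**Figure D3:**
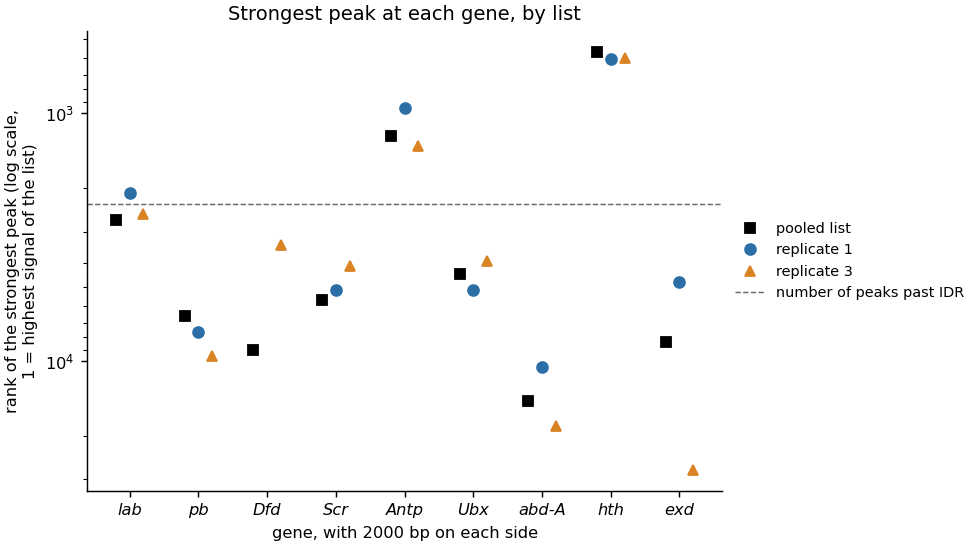
Rank of the strongest peak at each member (y axis, log scale, 1 is the highest signal) in the pooled list and in each replicate, with members along the x axis in the order of the complexes, then hth and exd. The dashed line marks rank 2322, and in all 3 lists only Antp and hth stand above it. Replicate 1 alone also puts lab above, and has no point for Dfd because no summit fell there.

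Each replicate was also read alone. Among the 2322 strongest peaks of replicate 1, 3 of 9 members held a summit by span (lab, Antp and hth), against 22.7% of all protein-coding genes. In replicate 3, 2 of 9 did (Antp and hth), against 21.5%.

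Peaks of the relaxed pooled list, which includes background, lay more densely at hth than in either Hox complex. Of the 46 in the hth window only 3 passed IDR, so these densities are not densities of confident binding. With 2000 bp on each side, the Antennapedia complex (lab to Antp, 341.8 kb) held 63 pooled peaks, or 18.4 per 100 kb (interval 14.2 to 23.6). The bithorax complex (Ubx to Abd-B, 319.6 kb) held 41, or 12.8 per 100 kb (9.21 to 17.4). hth (136.0 kb) held 46, or 33.8 per 100 kb (24.8 to 45.1). exd held 1 in 8.04 kb, or 12.4 per 100 kb (0.315 to 69.3). The main chromosome arms averaged 15.7 per 100 kb. The interval of hth lay above those of both complexes and above the average, while both complexes had intervals that included the average. The interval of exd is too wide to place it. Among the strongest 5000 pooled peaks alone, the interval of hth overlapped that of the Antennapedia complex. No test of these differences was made.

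In each replicate's own list, which is not independent of the pooled one, hth was also denser than both complexes. In replicate 1 the densities were 25.5 per 100 kb (20.4 to 31.4) in the Antennapedia complex, 21.6 (16.8 to 27.3) in the bithorax complex and 45.6 (35.0 to 58.4) at hth, with 21.5 over the arms. In replicate 3 they were 26.9 (21.7 to 33.0), 23.5 (18.5 to 29.4) and 44.1 (33.7 to 56.8), with 22.4 over the arms. The exd window held 2 summits in replicate 1 and 1 in replicate 3, or 24.9 and 12.4 per 100 kb, so its place in the order changed. Peaks past IDR were too few to separate the windows. They numbered 4, 3, 3 and 0 in the Antennapedia complex, the bithorax complex, hth and exd, or 1.17, 0.939, 2.21 and 0 per 100 kb, against 1.73 over the arms. Neighbouring peaks of a list are not independent, so these intervals may be too narrow.

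**Figure D4:**
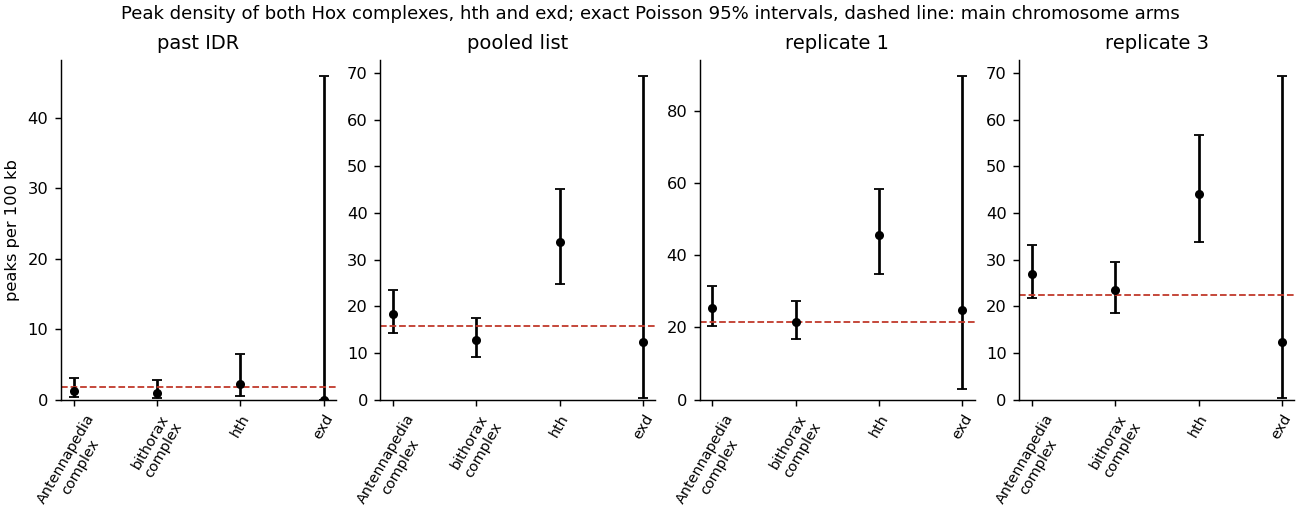
Peaks per 100 kb (y axis) in both Hox complexes, hth and exd (x axis), in the list past IDR, the pooled list and each replicate's list. Points are densities, vertical lines exact Poisson 95% intervals, and the dashed line is the average of the main chromosome arms. hth stands above the line in the pooled list and both replicates, at 33.8, 45.6 and 44.1 per 100 kb.

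Among the 1013 protein-coding genes longer than 20 kb the median density was 15.7 pooled peaks per 100 kb (quartiles 8.03 and 25.5). hth exceeded 89.3% of them. In number of pooled peaks only kirre, with 76 over a span of 394.1 kb, had more than the 46 of hth. Scr (22.7 per 100 kb), Antp (16.8), pb (15.7) and Ubx (13.4) were within the quartiles, and abd-A, at 3.73, exceeded 10.8% of these genes.

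Of the 46 pooled peaks in the hth window, 39 were in introns and 1 was within 500 bp of a TSS. The 10 kb upstream of the distal start, partly in this window, held 6 pooled peaks, or 60 per 100 kb. This stretch also held 4 of the 6 hth peaks past IDR. Intron 6 (23.7 kb) held 8, intron 8 (14.6 kb) held 6, and introns 3 and 11 held 4 each. In the Antennapedia complex 34 of 63 were intronic and 9 at promoters, and in the bithorax complex 26 of 41 were intronic and 7 at promoters. Over all members' spans, 5 of 97 pooled summits (5.15%) were at promoters, against 29.4% of all pooled summits. None of the 8 member peaks past IDR was at a promoter, against 55.1% of all 2322. Long genes hold more sequence away from a TSS, and the part of gene length in this difference was not tested.

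Both complexes held peaks past IDR that belonged to none of the members. In the Antennapedia complex the strongest was 306 bp from the TSS of Ama, an immunoglobulin-domain gene between the Hox genes (summit 6762899, signal 129.5). It ranked 653 in replicate 1 and 747 in replicate 3. Another was 237 bp from the TSS of bcd, the anterior morphogen gene (summit 6759703, signal 90.2). The remaining 2 of the 4 are those of Antp. The promoters of these neighbours thus held peaks past IDR, while the Hox genes beside them, pb and Dfd, held 0.

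In the bithorax complex the strongest peak of any window described lay in intergenic DNA between lncRNA:bxd and abd-A (16798690 to 16799089, summit 16798890, signal 168.3, rank 462). It was 8324 bp beyond the 3' end of abd-A. By nearest TSS it fell to Glut3, at 10579 bp. The replicates ranked it 474 and 530. From this summit to the promoter peak of abd-A, a stretch of 29139 bp that covers nearly all of abd-A, no pooled peak was called. Each replicate's own list did have summits in this stretch. Another peak (summit 16748739, signal 91.2) was in an intron of lncRNA:bxd, the non-coding gene upstream of Ubx, 14313 bp from the start of Ubx. The last, at 16958344, was in an intron of Abd-B, the Hox gene of the posterior abdomen (signal 101.7). The longest stretch of the Antennapedia complex without a pooled peak, 36106 bp, ran from lab into the end of pb.

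The rule of assignment changed the number of relaxed peaks at some members. By nearest TSS Dfd had 13 pooled peaks in place of 3 and abd-A had 6 in place of 1, while pb had 3 in place of 6 and Ubx 8 in place of 11. For hth the numbers were 43 and 46, and for Antp 20 and 18. In the Antp window 2 pooled summits were given to CG46458, whose start coincides with an internal start of Antp. The choice between genes at such a tie is arbitrary.

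At least 1 of the 6 sequences was in 5 of the 8 member windows past IDR (62.5%, exact interval 24.5 to 91.5), against 42.2% of all 2322 windows. ACGTG was in 0 of the 8 windows (exact interval 0 to 36.9%), against 6.68% of those windows. TAATTA was in 0 as well, against 9.99%. TGATNNAT was in 2, both upstream of hth at 1866 and 9460 bp, against 8.10% of all windows. TGACAG was in 1, 3790 bp upstream of hth (2.54% of all), GAGAG in 1 of Antp (9.35%), and GCCAT in 1, with 2 copies, 9659 bp upstream of hth (14.2%). With 8 windows these counts are a description and show no difference from the list. The G and C content of the 8 windows averaged 34.7%, against 33.4% for all windows past IDR, and ran from 20.8% at the farther Antp summit to 51.5% at 9659 bp upstream of hth.

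In the 97 pooled windows within the members' spans, the share with GCCAT was higher than in the list at large. It was in 33 (34.0%, interval 24.7 to 44.3), against 18.3% of all 21025 pooled windows. The share was 34.8% at hth (16 of 46, interval 21.4 to 50.2), 33.3% in the Antennapedia complex (21 of 63, 22.0 to 46.3) and 19.5% in the bithorax complex (8 of 41, 8.82 to 34.9). The shares of GAGAG (17.5% against 11.1%), ACGTG (6.19% against 7.77%), TGACAG (4.12% against 3.63%), TGATNNAT (9.28% against 6.71%) and TAATTA (6.19% against 7.19%) had intervals that included the value of the whole list. The windows in member spans had a G and C content of 41.5%, against 40.1% for all, and were less often at promoters. The part of either in the share of GCCAT was not tested, and most of these peaks carry low confidence.

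The genes that act on or with Hox genes were counted by the same span rule, by which 22.4% of all protein-coding genes held a peak past IDR. Of the 17 Polycomb group genes, which keep Hox genes silent, 8 held a peak past IDR, the highest at ph-p (signal 728.9) and at Pc (322.4, at the TSS of its neighbour CG11309). Of the 11 trithorax group genes, which keep them active, 8 did, the highest at ash1 (973.2, at the TSS of its neighbour CG14100) and at Trl (496.3), the GAGA factor gene. Of the 11 early regulators, the gap, pair-rule and related genes that set Hox expression, 1 did, cad (77.8). Of 9 collaborators matched, 1 did, cnc (87.8). Of 10 genes listed as Hox targets 3 did, with fkh (141.9) and Abd-B highest. Abd-B is itself a Hox gene, and its peak is the intronic one described above. By nearest TSS the counts were 5 of 17, 6 of 11, 0 of 11, 4 of 9 and 6 of 10, against 13% of all protein-coding genes. Among protein-coding genes longer than 20 kb the shares were 41.6% by span and 30.9% by nearest TSS, and the listed genes were not matched for length. These lists were not tested.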

How the data were processed

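Trh-GFP ChIP-seq peak lists of whole embryos were used: those of replicates 1 and 3, of the pool and past IDR, all on dm6. Per the deposited file lists, replicate and pooled lists were called against 1 shared control alignment, and the list past IDR was derived from them. For the aligner, the peak caller and the IDR cutoff, the sources used here name nothing. The signal value is a score the authors deposited, and the confidence value is the deposited −log10 q value. No counts or depths enter. The dm3 lists were not used.

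Summits (start plus offset, 1-based) were set against the Ensembl BDGP6.54 annotation and the release 6 genome. All peaks and genes ended within the arm lengths. Gene and sequence counting was checked on simulated data. Replicate summits were matched within 100 bp. Promoters were within 500 bp of any TSS. Intron numbers refer to the longest transcript. Intervals are Clopper-Pearson for shares and exact Poisson for densities. With 1 group, no test was made.

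Members, gene lists and sequences were chosen with earlier results of these data known. Named besides the members are the genes nearest to member peaks, bcd and Abd-B, and up to 2 genes of highest signal per further list. Ama, Glut3, lncRNA:bxd, asRNA:CR44018, CG46458 and kirre were named after their values were seen. Of the 10 collaborators listed, 9 matched a protein-coding gene, and every gene of the other lists matched. Python 3.11.15, numpy 2.4.6, scipy 1.17.1, pandas 2.3.3 and matplotlib 3.10.9 were used.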

Additional observations from a re-analysis of the deposited data

How the results depend on the processing

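Of 34 alternative values for 9 results, 15 stayed within the tolerance set for each (up to 1.5 times for counts), 19 moved and 0 reversed. The results are counts, medians and densities, which have no sign to reverse. With the stronger 1161 peaks past IDR only, members with a peak numbered 1 by span and 1 by nearest TSS (hth in both). The median signal of the 5 member peaks by span was 99.9, and that of the 8 by nearest TSS was 91.7. The only member peak left in the stricter list, the strongest of hth, had 152.9. With the strongest 5000 pooled peaks, fewer enter, and the Antennapedia complex had 3.80 per 100 kb (interval 2.03 to 6.50). The bithorax complex had 2.19 (0.881 to 4.51), hth 8.82 (4.56 to 15.4) and exd 0. On this list the interval of hth overlapped that of the Antennapedia complex. It lay just above that of the bithorax complex and above the average of the arms, 3.73. Without the 2000 bp flanks hth had 31.8 and exd 0, because its peak lies outside the gene. Leaving out each replicate in turn gave 25.5 to 26.9, 21.6 to 23.5, 44.1 to 45.6 and 12.4 to 24.9 per 100 kb, from longer lists. Without replicate 3, lab joined Antp and hth as a member with a peak among the strongest 2322. The median signal of member peaks by span was 36.6 without replicate 1 and 59.5 without replicate 3, on other score scales. With 100 bp on each side of the summit, 8 of 8 windows held a searched sequence in place of 5, and 67.2% of all windows past IDR did in place of 42.2%. Read depth is not known, and with 2 replicates and 8 member peaks small differences could not be seen.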

Other observations

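Several summits at hth stood close to the threshold or were strong in 1 replicate. The highest hth summit not past IDR, at 10537333 in intron 8, had a pooled signal of 73.3 and rank 2392. In replicate 1 it had signal 43.7 and rank 2638. Replicate 3 had a stronger summit at 10537232, just past the 100 bp limit for a match (signal 30.7, rank 2206), and a weaker one within it (signal 16.5, rank 12174). A summit of replicate 3 at 10640610, 1042 bp upstream of hth in the antisense RNA gene, had signal 36.6 and rank 1606. Its pooled rank was 4865, and replicate 1 had no summit within 100 bp.

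Pooled peaks matched in both replicates within 100 bp made up 54.3% of those at hth, 41.3% in the Antennapedia complex and 41.5% in the bithorax complex, against 41.9% of the whole list. The median pooled signal was 37.2 at hth, 33.4 and 32.9 in these complexes and 34.9 over the main chromosome arms. In the bithorax complex from Ubx to abd-A alone, the density was 12.4 pooled peaks per 100 kb (7.77 to 18.8).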
